A study of Solanum lycopersicum with 32 samples.

Results

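Acetylation of lysine 27 of histone H3 (H3K27ac) was followed in tomato leaves through heat, and 4434 regions were examined that carried an H3K27ac peak at 1 h and still at 6 h of 45 °C but none before heat. Peaks of the 6 H3K27ac lists on chromosomes 1 to 12 were merged where they overlapped or touched. A merged region of 150 bp or more was kept when a peak lay on it in both 1 h lists and both 6 h lists and in neither 0 h list. These regions, called gained and held here, were 4434 of 125643 merged regions of that width (3.53%) and were therefore selected on H3K27ac itself. Their H3K27ac values are a description of the selection and were not tested.

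H3K27ac is deposited by histone acetyltransferases and is a mark of active promoters and enhancers. H3K9ac and H3K18ac are acetylations of the same histone tail that also accompany active chromatin. Trimethylation of lysine 4 (H3K4me3) is concentrated at the start of transcribed genes, and RNA polymerase II (RNAPII) is the enzyme that transcribes protein-coding genes. In plants under heat, heat shock factors bind the promoters of chaperone genes and recruit the transcription machinery.

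Leaves of Solanum lycopersicum cv. M82, wild type, came from plants of 4 weeks kept at 24 °C under 16 h days and were sampled after 0, 1 or 6 h at 45 °C. Chromatin immunoprecipitation with sequencing (ChIP-seq) was performed for H3K27ac, H3K9ac, H3K18ac, H3K4me3 and RNAPII, with 2 libraries labelled as replicates per target and time, in 30 peak lists and 15 groups. Each replicate was a pool of seedlings according to the reporting summary of the study. All groups were of the same genotype, no unheated leaves were collected at 1 or 6 h, and the only input library is labelled 0 h. Heat and time of day, and changes of the target and of the input background, can therefore not be told apart. Identity of the leaf material could not be checked against marker genes, since the lists name no gene.

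At matched summits, the libraries labelled as replicates differed less than plain independent counts would. Their mean chi-square per matched summit was 0.295 to 0.705 in the 15 same-time pairs, all under 1, against 1.04 to 10.7 in the 60 pairs from different times. Only summits within 30 bp of each other and with at least 60 fragments in a pair were compared, a choice that can itself lower the value. Whether the libraries were independent was therefore not tested. As a caution, the mean of a group's libraries was counted as 1 sample and no SD is given. Values of both libraries are given side by side below, library 1 first, and show how repeatable the libraries were rather than how plants varied. Depth was read as the background in fragments over a base, recovered from the peak columns. For H3K27ac as called, it was 9.52 and 7.00 in unheated leaves, 9.71 and 7.32 after 1 h, and 9.32 and 7.02 after 6 h, so depth hardly moved with the selection. The H3K27ac lists still differed, with 111837 and 107422 peaks before heat, 126475 and 117734 after 1 h, and 118068 and 107123 after 6 h. They lay on 63.3% and 61.0% of all merged regions, then 77.6% and 69.9%, then 73.2% and 63.8%.

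H3K27ac in the gained and held regions was of low to middle height. The fold enrichment, the summit pileup over the local background as deposited, had a median over regions of 2.29 and 2.24 at 1 h. After 6 h this median was 2.24 and 2.21. Single regions reached 7.85 and 8.71 at 1 h, and after 6 h 8.01 and 7.1. Ranked within its own list, the median peak of these regions stood at percentile 39.4 and 32.1 for 1 h, and at percentile 36.2 and 28.3 for 6 h, below the middle of every list. In regions with a peak in all 6 lists, the median percentile was 75.9 and 73.8 at 1 h. Regions present only at 1 h lay lower, at 23.9 and 22.0. The peaks were rarely marginal by the authors' q-value, as 96.0% and 92.1% of the regions had a peak with q of at most 0.05 at 1 h, and 93.3% and 89.4% had one after 6 h. At the summit lay a median of 34 and 26 fragments at 1 h, and 41 and 24 after 6 h. The 41 of library 1 is a count before that library was scaled by 0.794, and does not compare with the 34.

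The absence of a peak at 0 h is a limit and not a level of zero. The limit was computed at the 1st percentile of the 0 h background, 9.52 and 7.00. There a pileup of 15 (library 1) and 12 (library 2) reached a p-value of 0.05, or folds of 1.52 and 1.62. A higher background lowers this fold, and the 0 h lists held peaks down to 1.28 and 1.31. At 1 h the median background on these regions was 13.9 and 10.7, so 1.52 and 1.62 lie at the high end of the limit. The median region stood 1.51 and 1.38 times above these 2 folds at 1 h, and 1.47 and 1.36 times after 6 h. At least 2 times these folds was found in 9.09% and 5.35% of regions at 1 h, and after 6 h in 9.38% and 4.56%. In the other regions, a level lower by 2 times before heat, or in part by less, would have left no peak at these folds. At a higher background it could still have been called. Folds are set side by side here and are not a measured change between lists.

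**Figure D1:**
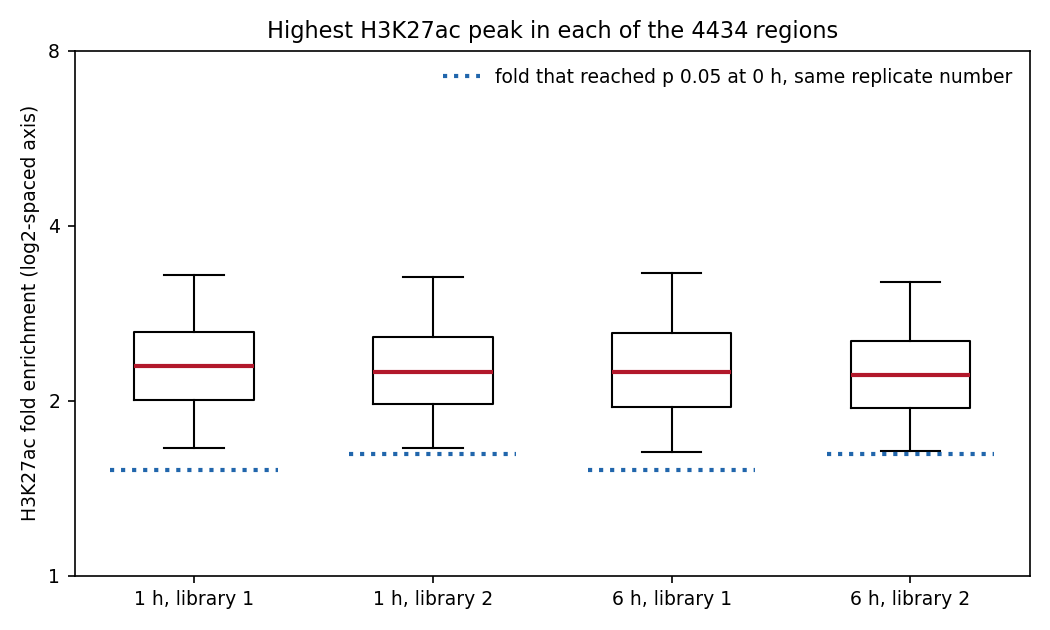
Fold enrichment of the highest H3K27ac peak in each of the 4434 gained and held regions, per heated library, on a log2-spaced axis. Boxes give the quartiles, the red line the median and the whiskers the range from the 5th to the 95th percentile. The dotted line is the fold that reached a p-value of 0.05 at the 1st percentile of the 0 h background. It is 1.52 for library 1 and 1.62 for library 2, and lower where the background was higher. Medians lie between 2.21 and 2.29, a short way above the dotted lines.

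The regions were narrow, with a median width of 459 bp (quartiles 339 and 628 bp) and a range of 175 to 2988 bp. Regions present only at 1 h had a median of 294 bp, those present only before heat 320 bp, and those in all 6 lists 1284 bp. The width threshold of 150 bp excluded no region that met the rest of the rule: 0 of the 2041 narrower regions did, and 17 of the selected ones were under 200 bp. The condition on lists cut more finely. A further 5772 regions had a peak in all 4 heated lists and in 1 of the 2 unheated lists, and 5662 had none in the unheated lists and a peak in 3 of the 4 heated lists. Summits of the 2 libraries at 1 h lay a median of 49 bp apart, and those of 1 h and 6 h lay 44 bp (library 1) and 54 bp (library 2) apart, about as close as the libraries of 1 time.

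Of 10739 regions that gained H3K27ac in both 1 h lists, 41.3% kept it in both 6 h lists and 26.0% had it in neither. The other 3511 had it in 1 of the 2. Only 1027 regions appeared at 6 h alone. H3K27ac peaks covered 73.9% and 65.3% of the length of the gained and held regions at 1 h, and 71.5% and 60.1% of it after 6 h.

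To learn which chromatin the new acetylation arose in, peaks of the 4 other targets were counted on these regions. Before heat, most already carried the other acetylations and RNAPII, and few carried H3K4me3. H3K18ac lay on 93.6% and 92.5% of them at 0 h, H3K9ac on 82.2% and 77.3%, RNAPII on 68.2% and 67.0%, and H3K4me3 on 7.08% and 8.64%. Over all merged H3K27ac regions the shares were 88.4% and 87.8% for H3K18ac, 56.9% and 52.9% for H3K9ac, 50.7% and 50% for RNAPII, and 26.1% and 28.4% for H3K4me3. Thus the gained and held regions were richer in H3K9ac and RNAPII peaks than an average region, before H3K27ac was called there. As a set they were poorer in H3K4me3 peaks, but by width clearly so only from 600 bp. From 600 bp to under 1200 bp the H3K4me3 shares were 7.29% and 9.58%, against 32.8% and 35.4% of all merged regions. From 300 bp to under 600 bp they were 6.71% and 7.96%, against 6.94% and 8.65%. Under 300 bp they were 8.03% and 9.33%, against 3.82% and 5.13%. Regions present only at 1 h had 5.15% and 6.73%.

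The most frequent state before heat was H3K9ac, H3K18ac and RNAPII together without H3K4me3. It was found in both libraries of each target in 2008 regions (45.3%), against 16.5% of all merged regions. H3K9ac with H3K18ac alone followed with 609 regions (13.7%), and H3K18ac alone with 259 (5.84%). All 4 targets were present in 109 regions (2.46%, against 17.8% of all merged regions). No peak of any of the 4 was found in 32 regions (0.722%, against 6.09%). The 2 lists of some target disagreed in the remaining regions, as 3340 could be assigned to a combination.

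These pre-existing peaks were not weak. Within its own list at 0 h, the median RNAPII peak on the regions stood at percentile 78.1 and 77.7 by fold, the H3K18ac peak at percentile 71.5 and 70.4, and the H3K9ac peak at percentile 65.7 and 62.0. A peak on a region may have its summit outside it. At 0 h, H3K18ac covered 88.5% and 87.7% of the length of the regions, H3K9ac 70.9% and 65.9%, RNAPII 49.8% and 48.3%, and H3K4me3 5.05% and 6.11%. Of 4203 regions on an unheated H3K18ac stretch, 81.1% lay wholly inside it, as did 79.5% of such regions present only at 1 h and 66.1% of all merged regions on a stretch. The median width of these stretches was 2561 bp, and 59.3% of them also held H3K27ac elsewhere before heat. An H3K4me3 peak was reached by 33.2% of them, against 46.8% for all merged regions and 25.5% for those present only at 1 h.

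**Figure D2:**
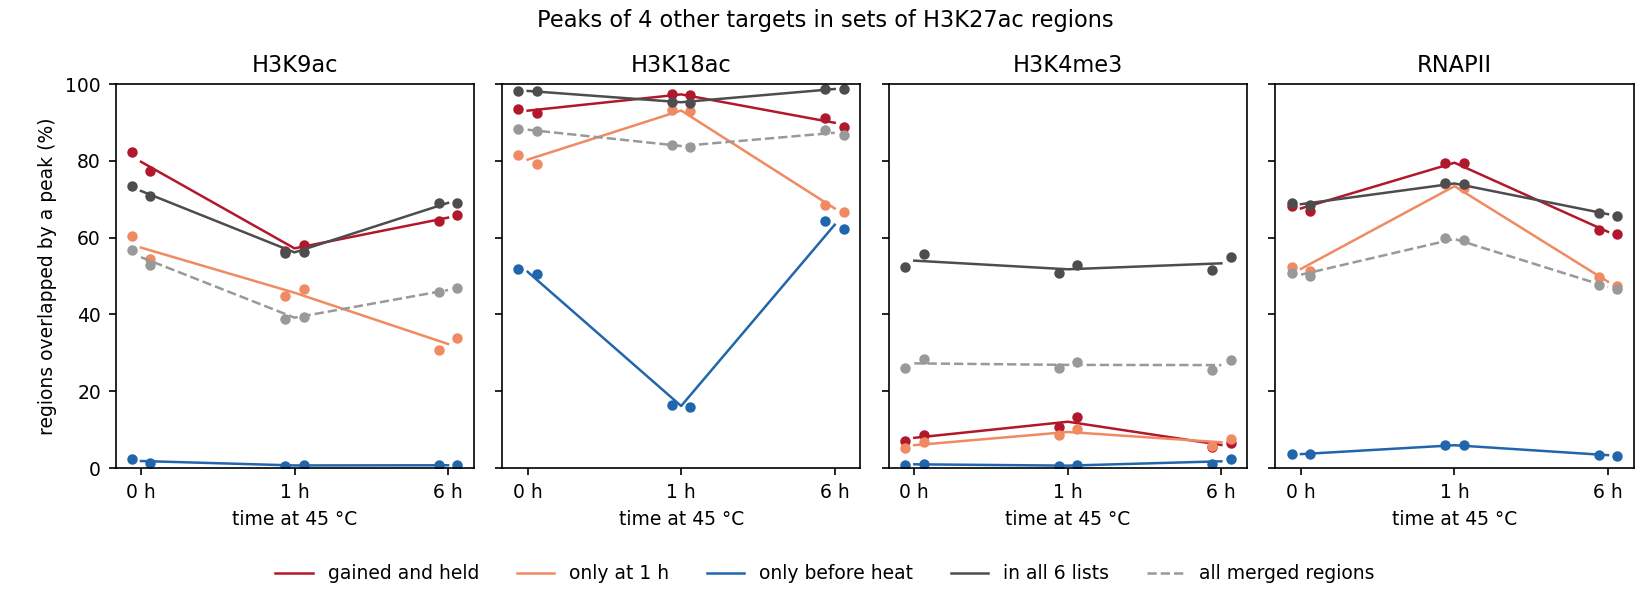
Percentage of H3K27ac regions overlapped by a peak of H3K9ac, H3K18ac, H3K4me3 or RNAPII at 0, 1 and 6 h of 45 °C, for the gained and held regions, 3 other sets and all merged regions. Points are libraries and lines join their means. RNAPII on the gained and held regions stands at 79.5% in both 1 h libraries and at 62.0% and 61.0% at 6 h, whereas H3K4me3 stays between 5.57% and 13.3%.

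New H3K27ac regions lay close to H3K27ac that was there before. The nearest 0 h H3K27ac peak was a median of 437 bp away, within 500 bp of 2462 regions (55.5%), within 1000 bp of 3500 (78.9%) and within 5000 bp of 4409 (99.4%). The farthest region was 45913 bp away. Only 119 regions (2.68%) were within 100 bp, just outside the overlap that would have excluded them. For regions present only at 1 h, the median was 549 bp. H3K4me3 peaks of unheated leaves were farther, at a median of 1449 bp from the gained and held regions, and 41.3% had one within 1000 bp.

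**Figure D3:**
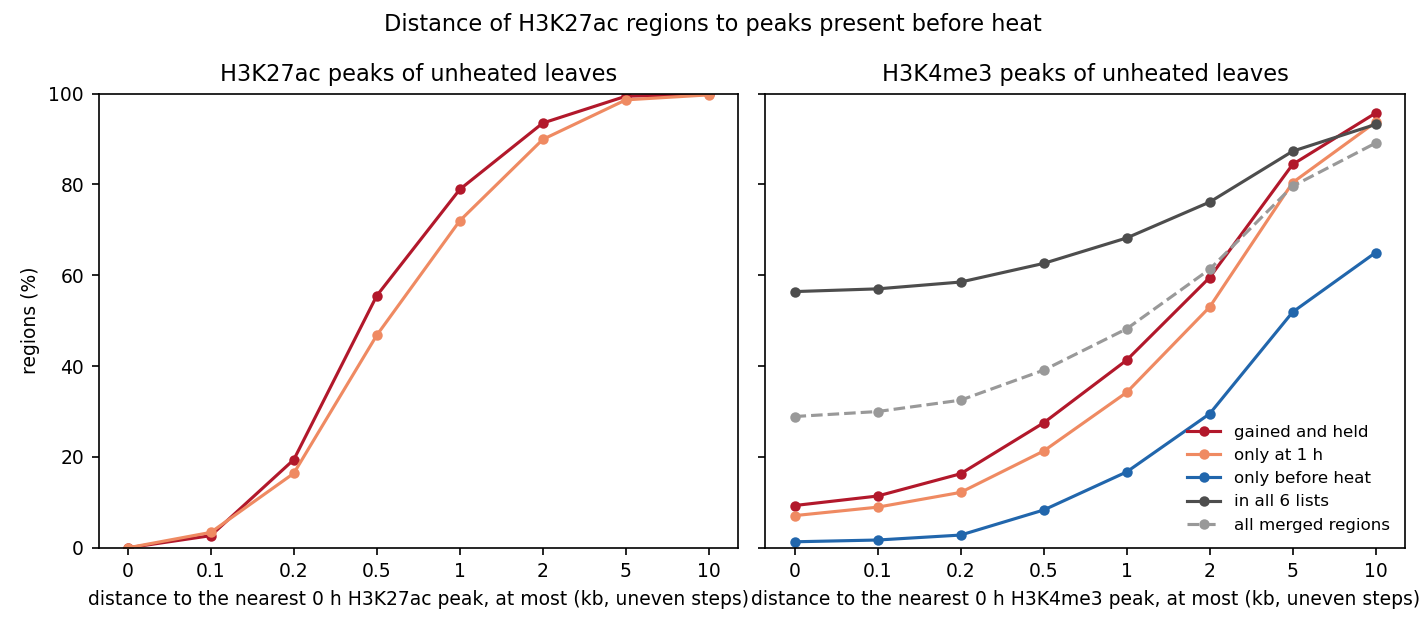
Cumulative percentage of H3K27ac regions by distance to the nearest H3K27ac peak (left) or H3K4me3 peak (right) of unheated leaves, from either 0 h list; the steps of the axis in kb are uneven. Of the gained and held regions, 78.9% lie within 1 kb of an H3K27ac peak and 41.3% within 1 kb of an H3K4me3 peak; sets chosen for H3K27ac before heat are left out on the left.

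After heat the shares of the other targets on these regions moved in different directions. At 1 h, RNAPII was found on 79.5% and 79.5% of the regions, 11.9 points more than at 0 h in the mean of the libraries, next to a difference of 9.32 points over all merged regions. H3K18ac was found on 97.5% and 97.1%, a difference of 4.21 points, against -4.27 points over all merged regions. H3K4me3 was on 10.8% and 13.3%, a difference of 4.18 points, against -0.386 points. H3K9ac, in contrast, was on 56.4% and 58.0%, a difference of -22.5 points, against -15.8 points. Depth moved with some of these shares. The background of H3K9ac was 7.40 and 7.39 fragments in unheated leaves and 4.60 and 5.64 after 1 h, and that of H3K18ac was 7.54 and 7.04 and then 11 and 8.61. The background of RNAPII was lower after 1 h (7.33 and 7.05, from 9.73 and 8.11) although its share was higher. With the 6 lists of a target cut to equal length, which also selects 3436 regions, the differences at 1 h were -14.3 points for H3K9ac, 5.86 for H3K18ac, 4.92 for H3K4me3 and 11.8 for RNAPII.

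Less the changes over all merged regions, the changes in share from 0 h to 1 h were 8.47 points for H3K18ac and 4.57 for H3K4me3. They were 2.61 points for RNAPII and -6.76 points for H3K9ac. The mean over the 4 targets was 2.22 points, positive in 3 of 4, and no common direction was detectable (exact sign-flip permutation test over targets, two-sided, p = 0.5, with 0.125 the smallest possible). Each target moved the same way in both libraries.

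At 6 h the other targets had receded. RNAPII lay on 62.0% and 61.0% of the regions, 6.12 points fewer than before heat, H3K18ac on 91.1% and 88.7% (-3.15 points), H3K4me3 on 5.57% and 6.43% (-1.86 points), and H3K9ac on 64.4% and 66.0% (-14.5 points). All 4 shares were below those of unheated leaves, while H3K27ac was, by selection, still called. The background of RNAPII (7.03 and 5.68) and H3K9ac (5.15 and 6.49) was below that of 0 h and that of H3K18ac (10.2 and 8.33) above it. Less the changes over all merged regions, the differences were -2.94 points for RNAPII, -2.32 for H3K18ac, -1.41 for H3K4me3 and -5.99 for H3K9ac, a mean of -3.16 points. The gained and held regions had started from higher shares of H3K9ac, RNAPII and H3K18ac. All 4 differences had the same sign, which gives the smallest p that 4 targets allow (exact sign-flip permutation test, two-sided, p = 0.125). With the labelled libraries taken as separate samples, p was 0.00154 (exact permutation test, two-sided), which compares libraries rather than plants.

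The rank of a peak within its list is given as a description for each time and not as a change, since the lists differed in length. H3K18ac lists held 107267 and 100888 peaks before heat, 92396 and 95313 after 1 h, and 117375 and 120174 after 6 h, and H3K9ac lists 78175 and 71698, 59134 and 57061, and 75400 and 73670. For H3K18ac the median percentile within the list was 71.5 and 70.4 before heat, 77.7 and 78.2 after 1 h, and 57.4 and 56.6 after 6 h. RNAPII stood at 80.8 and 81.3 after 1 h, and 74.8 and 74.3 after 6 h, beside 78.1 and 77.7 before heat. H3K9ac stood at 65.7 and 62.0 before heat, at 51.2 and 51.6 after 1 h, and at 53.1 and 54.6 after 6 h. H3K18ac also covered more of the length at 1 h (95% and 94.2%) than at 0 h, and RNAPII covered 66.9% and 66.4%. After 6 h these were 81.1% and 78.0% for H3K18ac and 41.9% and 40.2% for RNAPII.

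Gains and losses of single regions were counted next, a gain being a peak in both heated lists and neither 0 h list, and a loss the reverse. RNAPII was gained at 1 h on 409 of the 4434 regions (9.22%), close to the 8.29% of all merged regions. H3K18ac was gained on 152 (3.43%, against 2.06%), H3K4me3 on 132 (2.98%, against 1.06%) and H3K9ac on 75 (1.69%, against 1.63%). The percentages for H3K18ac and H3K4me3 were above the background, and those for RNAPII and H3K9ac were near it. Regions present only at 1 h gained RNAPII in 16.6%, H3K18ac in 10.6%, H3K4me3 in 2.97% and H3K9ac in 7.12%. Gains at 1 h were thus not particular to the held regions. Losses at 1 h were 703 for H3K9ac (15.9%, against 11.7%), 77 for RNAPII (1.74%, against 2.06%), 21 for H3K4me3 (0.474%, against 1.16%) and 19 for H3K18ac (0.429%, against 5.14%). Since more of the gained and held regions carried H3K9ac to begin with, losses were also read against the regions that had the target in both 0 h lists. On that base H3K9ac was lost at 1 h from 21.4% of 3282 regions, against 23.6% of 62590 among all merged regions, so the higher count does not mean that H3K9ac was lost more readily. H3K18ac was lost from 0.469% of 4049 (5.98% overall), RNAPII from 2.76% of 2789 (4.41%) and H3K4me3 from 7.39% of 284 (4.56%).

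At 6 h, gains were few, and as a percentage of all regions they were near or below the background: 89 for H3K18ac (2.01%, against 1.86%), 50 for RNAPII (1.13%, against 1.4%), 44 for H3K9ac (0.992%, against 1.7%) and 21 for H3K4me3 (0.474%, against 0.537%). Losses were 406 for H3K9ac (9.16%, against 6.62%), 182 for RNAPII (4.1%, against 2.97%), 150 for H3K18ac (3.38%, against 2.43%) and 62 for H3K4me3 (1.4%, against 0.887%). Of the regions that had the target before heat, H3K9ac was lost from 12.4% (13.3% overall) and RNAPII from 6.53% (6.34% overall), both close to the overall share. On the same base H3K18ac was lost from 3.7% (2.82% overall) and H3K4me3 from 21.8% of 284 regions (3.47% overall).

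**Figure D4:**
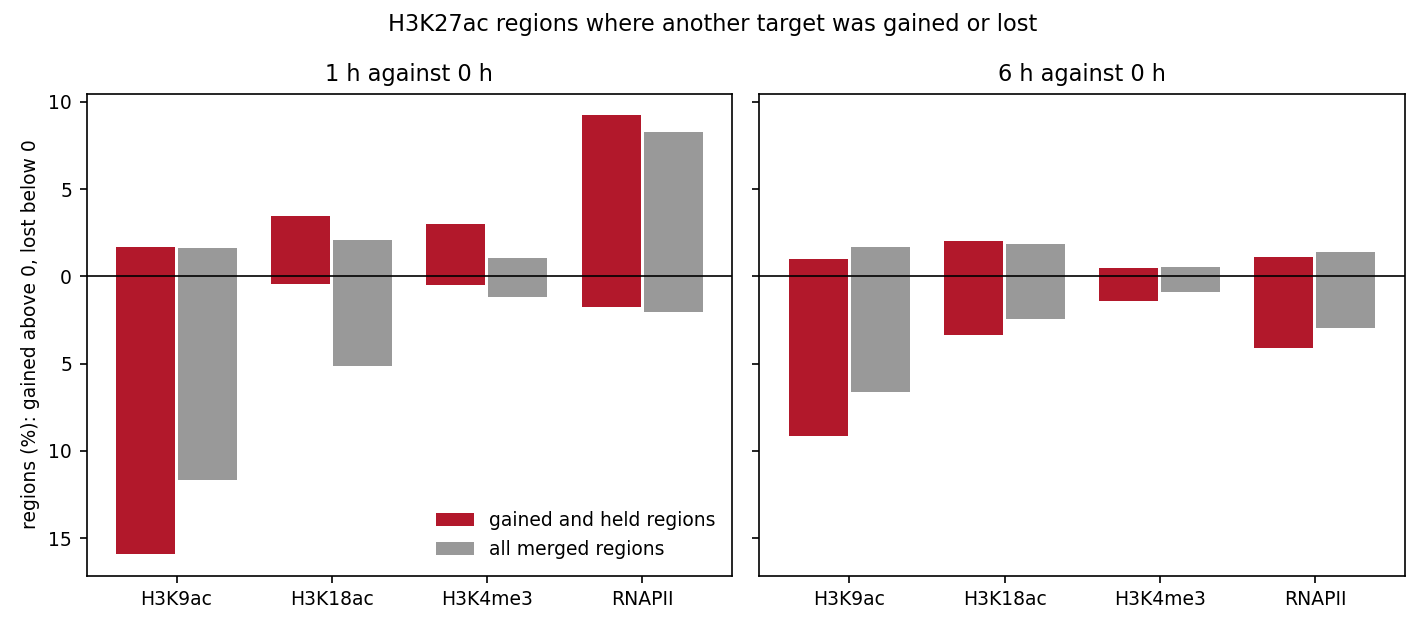
Percentage of H3K27ac regions on which another target was gained (upward bars) or lost (downward bars) at 1 h and at 6 h against 0 h, for the gained and held regions (red) and all merged regions (grey). RNAPII gains at 1 h (9.22% and 8.29%) and H3K9ac losses at 1 h (15.9% and 11.7%) are the tallest bars, and H3K18ac losses at 1 h differ most in proportion (0.429% and 5.14%).

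Few regions were open to a gain of H3K18ac, since most had it. Of the 231 gained and held regions with no H3K18ac peak at 0 h, 65.8% had it in both 1 h lists, against 21.2% of 12200 such regions overall. The overall regions were not chosen for new H3K27ac at 1 h, and this share was not computed for regions present only at 1 h. Of all of the latter, 84.6% overlapped H3K18ac at 0 h and 10.6% gained it at 1 h, beside 94.8% and 3.43% of the held regions. Most regions of either set that lacked H3K18ac thus gained it. Of regions with no RNAPII peak at 0 h, 33.3% of 1228 held regions and 18% of 57947 overall had it in both 1 h lists. For H3K9ac these shares were 11.6% of 644 and 4.08% of 50257, and for H3K4me3 3.28% of 4021 and 1.49% of 89277. Of the regions present only at 1 h, 57.1% overlapped RNAPII at 0 h and 16.6% gained it at 1 h. In the held regions these were 72.3% and 9.22%. For H3K9ac they were 64.9% and 7.12%, beside 85.5% and 1.69% of the held regions. Shares above those overall were thus not particular to the held regions for H3K18ac, RNAPII or H3K9ac. At 6 h the share for H3K18ac was 38.5%, against 19.1% among all merged regions, and that for RNAPII was 4.07%, against 3.04%. Gains were mostly of single targets: 612 regions gained 1 other target at 1 h, 59 gained 2, 10 gained 3 and 2 gained all 4, and 3751 gained none. Gains of the other target at both times were 58 for H3K18ac (1.31%, against 0.539% of all merged regions), 35 for RNAPII (0.789%, against 0.977%), 17 for H3K9ac (0.383%, against 0.302%) and 12 for H3K4me3 (0.271%, against 0.146%). RNAPII at 1 h only was found on 306 regions (6.9%), close to the 6.01% of all merged regions, and H3K4me3 at 1 h only on 113 (2.55%, against 0.825%).

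The peaks after heat were also counted by the state before heat. In the 2008 regions with H3K9ac, H3K18ac and RNAPII but no H3K4me3, RNAPII was in both lists of 96.9% at 1 h and 85.6% at 6 h, and H3K9ac in 68.0% and 75.0%. Over all 20685 merged regions of that state, RNAPII was in nearly the same shares, 94.6% and 82.7%, and H3K9ac in 55.5% and 63.5%. In the 609 regions with H3K9ac and H3K18ac alone, RNAPII was in both lists of 44.0% at 1 h and of 3.78% at 6 h, and H3K9ac in 33.8% and 56.5%. For all 8976 merged regions of that state these shares were 37.7% and 3.48% for RNAPII and 26.5% and 44.6% for H3K9ac. H3K4me3 new at 1 h lay mostly near older H3K4me3. It was found on 11.8% and 16.0% of the 1419 regions within 1000 bp of a 0 h H3K4me3 peak, and on 0.423% and 0.922% of the 2602 regions farther away.

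The regions also differed among themselves by the height of H3K27ac. They were divided into 4 equal classes by the lowest of the 4 heated folds, which ran from 1.34 to 5.01 with a median of 1.91. H3K9ac before heat was on 71.9% and 64.6% of the lowest class and on 91.5% and 89.9% of the highest, and RNAPII at 0 h on 61.7% and 60.3% and on 77.5% and 77.8%. Median width was 452 bp in the lowest and 469 bp in the highest class. H3K18ac at 6 h went the other way, with 91.9% and 90.7% in the lowest and 90.0% and 84.3% in the highest class. By width, RNAPII at 1 h lay on 74.3% and 75.6% of the 697 regions under 300 bp and on 95.7% and 94.3% of the 70 regions of 1200 bp or more.

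The 3 sets of comparison were tested on the 4 other targets, which the selection did not use. Held regions carried more of them than regions present only at 1 h, by a mean of 12.1 points over 12 target and time groups. The difference was positive in 11 of 12 groups and ran from -0.694 (H3K4me3 at 6 h) to 32.9 points (H3K9ac at 6 h). It was past the threshold (exact sign-flip permutation test over the 12 groups, two-sided, p = 0.000977, adjusted over 3 comparisons 0.00146). The 12 groups share targets and regions and are not independent. This p therefore describes only how constant the differences were in sign and size. Already before heat the held regions had more H3K9ac (82.2% and 77.3%, against 60.5% and 54.3%), H3K18ac (93.6% and 92.5%, against 81.5% and 79.1%) and RNAPII (68.2% and 67.0%, against 52.4% and 51.3%). With shares weighted to the members' widths, the mean difference was 8.03 points, positive in 9 of 12 groups (adjusted p = 0.0381 in the same exact test). At 1 h the weighted differences were 1.41 points for H3K9ac, 2.38 for H3K18ac, -1.16 for H3K4me3 and -0.553 for RNAPII. At 0 h they were 19.3, 14.6, 0.77 and 8.99 points, and at 6 h 28.5, 23.3, -4.52 and 3.31 points, in the same order.

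Regions present only before heat had few peaks of the other targets except H3K18ac. They carried H3K9ac in 2.26% and 1.38%, RNAPII in 3.64% and 3.59% and H3K4me3 in 0.837% and 1.08% of cases at 0 h. The gained and held regions exceeded them in all 12 groups, by 4.25 to 81.1 points and a mean of 47.2 (exact sign-flip permutation test, two-sided, p = 0.000488, the smallest possible, adjusted 0.00146). The same limit holds for this p, as the 12 groups are not independent. The H3K18ac shares were farthest apart at 1 h, when the regions present only before heat went from 51.8% and 50.4% to 16.5% and 15.8%. Against regions with H3K27ac in all 6 lists the mean difference was -11.7 points, positive in 4 of 12 groups and not past the threshold (p = 0.0811 in the same exact test). Without library 1 or library 2 it was -13.6 and -13.5 points and past it (p = 0.00244 and 0.00342, exact). It became 6.12 points with shares weighted by width, where H3K4me3 remained the lower one at each time, by 11.8 to 16.6 points. Held regions thus had fewer H3K4me3 peaks than long-standing H3K27ac regions at any width weighting tried.

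Position within the genome separated the sets as well. On the M82 version 1.0 assembly, the gained and held regions were 2.32% (chromosome 12) to 4.37% (chromosome 4) of the merged regions of a chromosome. Chromosome 1 held the most, 529. Of 807 bins of 1 Mb, 381 had none, and the highest count in a bin was 47. In the 403 bins with the fewest H3K4me3 peaks before heat lay 90 of the gained and held regions (2.03%), against 10.2% of all merged regions, 2.86% of those present only at 1 h and 31.1% of those present only before heat. Another gained and held region lay within 10000 bp of 2106 (47.5%), in 818 groups, a count that was not compared with other regions. The largest such group had 9 regions over 37769 bp of chromosome 6 (497453 to 535221). Summits of H3K27ac and RNAPII at 1 h were a median of 521 and 527 bp apart in these regions, and 11.1% and 10.6% of regions had them within 100 bp, against 36.4% and 31.9% for H3K9ac. RNAPII summits were at a like distance in regions of all 6 lists (543 and 538 bp) and in those present only at 1 h (566 and 554 bp). In regions of all 6 lists, H3K27ac and H3K4me3 summits lay 83 bp apart in both libraries. They were 463 and 546 bp apart here, in the 480 and 588 regions with H3K4me3 at 1 h. In regions present only at 1 h they were farther, at 721 and 712 bp.

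Single regions are described by position, since no annotation of this assembly was at hand and no gene was assigned. In 2 regions all 4 other targets were gained together with H3K27ac at 1 h; these were picked out after their values were seen. The first, at chr5:42559677-42562664, was also the widest region (2988 bp) and had no peak of any target before heat. The H3K27ac fold was 7.85 and 8.71 at 1 h, then 3.66 and 2.73 after 6 h. At the summit lay 109 and 95 and later 62 (before scaling) and 29 fragments. H3K9ac stood at 34.4 and 30.8, then 8.33 and 7.2. H3K18ac stood at 13.6 and 16.3, then 3.34 and 2.75. The folds of the 3 acetylations were lower in the 6 h lists than in the 1 h lists, while RNAPII had 34.3 and 32.2 and then 29.4 and 30.9, and H3K4me3 had 4.34 and 4.47 and then 6.96 and 8.21. It was the only region with all 4 gains at 6 h.

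The second, at chr11:7847462-7848100 (639 bp), had lower folds at 1 h than the first, and its RNAPII folds too were lower in the 6 h lists. H3K27ac was 3.06 and 3.35, then 1.96 and 1.47, and RNAPII 20.1 and 20.7, then 11.8 and 11.7. H3K9ac was 13.1 and 12.6, then 4.47 and 3.12. H3K18ac had 5.75 and 6.25 at 1 h and no peak at 6 h, and H3K4me3 had 2.95 and 3.84, then 7.62 and 6.67. Its nearest 0 h H3K27ac peak was 9990 bp away.

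**Figure D5:**
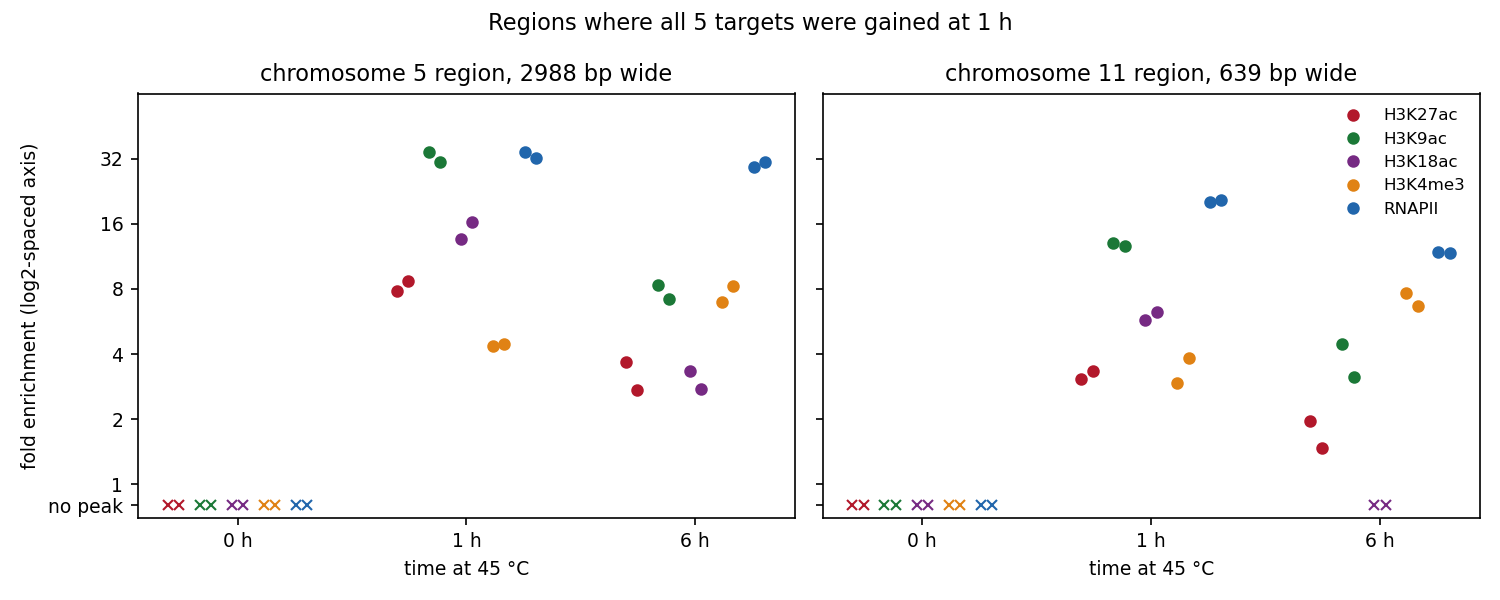
Fold enrichment of each target in each library (points, log2-spaced axis) for the 2 regions where all 5 targets had peaks at 1 h and none at 0 h; crosses mark libraries with no peak. Folds come from separate lists. RNAPII stands at 34.3 and 32.2 at 1 h and 29.4 and 30.9 at 6 h in the chromosome 5 region, where H3K27ac goes from 7.85 and 8.71 to 3.66 and 2.73.

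The 10 regions with the highest H3K27ac, ranked by the lowest of their 4 heated folds (3.75 to 5.01), were often on H3K4me3. Of these, 7 overlapped an H3K4me3 peak of unheated leaves, against 9.31% of all gained and held regions, and all 10 had H3K9ac in both 0 h lists, as did 3282 of the 4434. Over the 4 height classes H3K4me3 differed little. At 0 h it lay on 9.63% and 10.8% of the highest class, 6.58% and 8.39% of the lowest, and 5.52% and 7.59% of the class next to the highest. The top region, chr12:1407066-1407314 (249 bp), had H3K27ac folds of 5.47 and 5.94 at 1 h, then 5.35 and 5.01. Beside them stood H3K9ac (19.4 and 19.1 before heat, 19.0 and 17.1 at 1 h, 15.4 and 16.1 after 6 h) and RNAPII (15.3 and 16.3, 17.4 and 16.5, 18.6 and 19.4). The second, chr10:48264862-48265762 (901 bp), had more H3K27ac at 6 h (8.01 and 7.1) than at 1 h (4.64 and 4.5). There the H3K9ac folds over the 3 times were 4.35 and 4.47, 23.6 and 22.5, then 11 and 11.3, and those of RNAPII 4.67 and 6.48, 16.9 and 17.1, then 7.75 and 7.2.

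A region at chr6:43044929-43045645 (717 bp) had RNAPII folds of 7.22 and 6.24 before heat, 29.9 and 30.9 at 1 h, then 19.7 and 19.2, and H3K9ac folds of 5.36 and 4.77 before heat beside 30.2 and 26.6 at 1 h. At chr2:40318585-40318947 (363 bp), the H3K9ac folds were 21.3 and 20.8 in the 0 h lists, 3.51 and 2.95 in those of 1 h and 2.65 and 3.02 in those of 6 h, with RNAPII between 15.5 and 19.3 throughout. At chr10:55450657-55451009 (353 bp) H3K18ac (4.1 and 3.82 before heat) had no peak after heat and H3K9ac stood at 19.2 and 15.8 before and at 5.55 and 6.46 after 1 h, while H3K27ac was 4.17 and 4.01, then 4.81 and 5.81. The other 5 of the 10 lay on chromosomes 11, 3, 9, 5 and 7 with lowest folds of 4.44, 3.97, 3.86, 3.79 and 3.75. Of these, chr3:2933999-2934232 had no RNAPII peak in any list but H3K4me3 in all 6 (12.9 and 15.5 before heat).

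Of the 5 widest regions, 3 had the combination that was most frequent before heat. Next to the chromosome 5 region, the widest were chr9:45123975-45126614 (2640 bp), chr1:80527334-80529468 (2135 bp), chr9:63436819-63438843 (2025 bp) and chr9:382267-384259 (1993 bp). The first of these had almost no other target before heat, with RNAPII at 1.44 and 2.15, and reached 26.2 and 21.9 for RNAPII and 15.2 and 12.8 for H3K9ac at 1 h. The other 3 had H3K9ac, H3K18ac and RNAPII in all 6 lists of each and H3K4me3 in none. For chr9:382267-384259, RNAPII was 5.57 and 6.32 before heat, then 5.23 and 4.05, then 5.13 and 5.3.

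Of the regions with a held gain of another target, the highest for RNAPII after the chromosome 5 region were chr3:46356641-46357305 (31.9 and 32.5 at 1 h, 16.8 and 15.8 at 6 h) and chr4:62367504-62367753 (15.8 and 13.9, then 15.3 and 16.7). The former had H3K4me3 at 24.7 and 19.5 before heat already, and its H3K27ac was low, at 2.35 and 2.2 and then 1.56 and 1.67. For H3K9ac the highest held gain was at chr11:53816898-53817507, with 25.6 and 21.2 at 1 h and 22.0 and 20.8 after 6 h. For H3K18ac it was at chr6:48973211-48973916 (9.57 and 10.2, then 7.36 and 9.4), which lay within 10000 bp of another of the top 3, chr6:48963471-48963699 (3.64 and 2.91, then 2.81 and 3.97). For H3K4me3 the highest were chr8:1549939-1550484 (22.1 and 19.2, then 18.9 and 16.9), chr8:57849315-57849656 (20.4 and 19.6, then 19.3 and 15.2) and chr3:61050300-61050900 (26.2 and 14.6, then 14.7 and 16.7). All 3 had RNAPII before heat, and lay 129, 425 and 563 bp from an older H3K4me3 peak. In none of these 3 did the H3K27ac fold exceed 3.77.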

How the data were processed

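Peak lists of 30 libraries were used as the authors deposited them, on M82 V1.0; samples of H3K27me1 and of input are not used here. The authors used Trimmomatic 0.38 for trimming, Bowtie2 2.3.5 for mapping and MACS2 2.2.7.1 for calling peaks in each library against 1 input. The methods text names a q cutoff of 0.05 and broad peaks, whereas the reporting summary names a p cutoff of 0.05 and no broad option, as the deposited lists show. The deposited fold enrichment is a ratio of pileup to background, and p- and q-values are deposited as −log10. Fragments per summit were recovered from both columns within 0.001 in −log10 p; 4 libraries had been scaled down, and the 1st percentile of the background gave the depth. A loss of depth widens what counts as no peak.

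Regions, overlaps of 1 bp or more, shares and exact sign-flip permutation tests were computed with Python 3.11.15, numpy 2.4.6, pandas 2.3.3 and scipy 1.17.1, and checked on simulated data. Coordinates count from 1. Regions named in the text were chosen by rule: the 10 with the highest lowest heated H3K27ac fold, the 5 widest, and the 3 with the highest lowest fold among held gains of each other target. The regions, sets and tests were chosen with earlier results of these data known. Alternatives were q of at most 0.05 or 0.01, lists of equal length, 300 bp, a distance of 500 bp, gaps of 200 bp, 50% overlap, single replicates, width weighting, other test units and the replicate block.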

Additional observations from a re-analysis of the deposited data

Results flagged for a closer look

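For 3 targets the share of gained and held regions with a peak moved one way at 1 h and the opposite way at 6 h, against 0 h, in both libraries; the difference between the times was not tested. The H3K18ac share changed by 4.21 points at 1 h and by -3.15 points at 6 h. The H3K4me3 share changed by 4.18 and -1.86 points, and the RNAPII share by 11.9 and -6.12 points. The depth of H3K18ac as called was 7.54 and 7.04 before heat, 11 and 8.61 after 1 h, and 10.2 and 8.33 after 6 h, that of H3K4me3 5.05 and 7.43, 5.08 and 6.97, and 4.04 and 6.70, and that of RNAPII 9.73 and 8.11, 7.33 and 7.05, and 7.03 and 5.68. The part of depth in these shares was not tested.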

How the results depend on the processing

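The selection depended on the lists more than the shares did. The number of gained and held regions was 1974 with no 0 h peak within 500 bp, 2538 with gaps joined, and 12812 to 16728 with 1 library per time; it was 3436 to 4184 under the other settings. With q of at most 0.05, 3379 of the regions remained (76.2%), and 2160 (48.7%) with q of at most 0.01, where a stricter 0 h list let other regions in. Regions with a gain of any other target at 1 or 6 h were 753, and 308, 387 and 4274 to 5280 in those same settings. The mean change at 1 h was 1.74 to 2.23 points and at 6 h -3.61 to -2.62 without one replicate. At 6 h, p was 0.00154 with labelled libraries as separate samples (value -3.16) and 0.00781 with the replicate block (-3.16, 8 of 8 pairs below 0; exact tests); at 1 h the block gave 2.22 (p = 0.32, exact). The numbers pair no plants by their labels, and library differences correlated between times by -0.00102 to 0.155 in 15 pairs of times, over 0.1 in 1. On unheated leaves alone the differences were 13.2 points from the 1 h only and 47.7 points from the 0 h only regions, with 0.125 the smallest p of an exact test of 4 groups. Against regions of all times the difference was -12.9 (q 0.05), -14.1 (q 0.01) and -14.6 points (gaps), past the threshold in each, -13.6 to -13.5 without one replicate, -1.84 with 50% of a region covered, and 6.12 with width weighting, the last 2 not past it. Counts of gains per target moved by more than 1.5 times in 36 values and by less in the other 36. The comparisons with 1 h only and 0 h only regions kept their direction in every setting tried, and their side of the threshold in all but that of unheated leaves alone, where adjusted p was 0.188 for each (exact test). Depth limits all counts of absent peaks.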
